A study of Mus musculus with 6 samples.

Results

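Neurotrophins are secreted growth factors that keep sensory neurons alive and shape their connections. They are made as precursors and bind 2 unlike kinds of receptor, the Trk receptor tyrosine kinases and p75, a member of the tumour necrosis factor receptor family. In the cochlea, neurotrophin-3 and brain-derived neurotrophic factor are best known as factors from the sensory epithelium that support spiral ganglion neurons, the afferent neurons of hearing, through TrkC and TrkB. The group described here holds 6 genes picked by symbol out of 48709 mouse genes in the count table. Ntf3 encodes neurotrophin-3 and Bdnf encodes brain-derived neurotrophic factor. Ntrk2 encodes TrkB, the receptor of Bdnf, and Ntrk3 encodes TrkC, the receptor of neurotrophin-3. Ngfr encodes p75, and Sort1 encodes sortilin, a sorting receptor that binds the precursor forms and acts as a partner of p75. All 6 passed the filter on low counts.

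RNA-seq was made from ribosomal RNA-depleted total RNA of cochleae from 3 wild-type mice (Hgf+/+) and from 3 mice, described as their littermates, of the homozygous genotype Hgfdel10Neo/del10Neo, called knock-in below. The engineered allele lacks 10 bp of intron 5 of Hgf, the gene of hepatocyte growth factor, and its name in the labels includes Neo, a selection cassette. The mice were 5 to 27 weeks old, and the labels give neither age nor sex nor litter mouse by mouse. No treatment is named, and the labels tie the allele to no cell type or inducible promoter.

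Libraries held 24005234 to 42312291 mouse gene counts. Markers of the tissue were present in every library, at 152 to 169 CPM (counts per 1000000 on scaled library sizes) summed over 14 hair cell genes in wild-type and 155 to 168 CPM in knock-in. The knock-in libraries carried 71, 199 and 5 Neo counts against 5, 8 and 10 in wild-type, which puts the library labelled knock-in replicate 3 among the wild-type libraries for a sequence named in its own genotype. Its Hgf and Dct levels, 10.5 and 23.6 CPM, were among those of the other knock-in libraries (9.23 and 10.4 CPM for Hgf, 19.3 and 24.3 CPM for Dct) and below every wild-type library (15.2 to 16.2 CPM for Hgf, 98.5 to 116 CPM for Dct). The fold changes, ratios, levels, spreads and list counts below are therefore also given without it. The correlations use all 6 libraries, because 5 are too few. In bulk tissue, fewer cells of a type and less RNA per cell cannot be told apart.

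The 2 Trk genes each encode forms with and without the kinase domain, and counts per gene add these forms together. Both kinds of form start with the same coding sequence and part within the region after the transmembrane segment. The stretches below are shown because they mark where the forms differ and what the gene counts cannot separate. They are coding sequence from GENCODE release M21 transcripts, 5′ to 3′, with 30 shared bases in lower case and the bases of that form alone in capitals.
Ntrk2 kinase form: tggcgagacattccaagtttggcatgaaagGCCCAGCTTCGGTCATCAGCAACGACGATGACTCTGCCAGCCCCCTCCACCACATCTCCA
Ntrk2 short form: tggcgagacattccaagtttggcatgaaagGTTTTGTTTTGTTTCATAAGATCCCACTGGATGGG
Ntrk3 kinase form: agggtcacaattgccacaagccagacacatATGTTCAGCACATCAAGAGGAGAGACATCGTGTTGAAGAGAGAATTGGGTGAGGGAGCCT
Ntrk3 short form: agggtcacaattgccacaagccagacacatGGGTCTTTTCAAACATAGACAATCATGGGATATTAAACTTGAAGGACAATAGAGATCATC

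The 2 forms of Ntrk2 shown share 1393 coding bases. After them the kinase form runs on for 1070 bases, of which the first 60 are shown, and the short form ends after the 35 shown. On GRCm38 the short form's own stretch lies at chr13:58932023-58932057 on the forward strand, and the first 60 bases of the kinase form's own part at chr13:58985802-58985861. The 2 forms of Ntrk3 share 1585 coding bases, followed by 890 bases in the kinase form and 251 in the short form, with 60 of each shown. These lie at chr7:78260355-78260414 and chr7:78304367-78304426 on the reverse strand.

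TrkC also has kinase forms that differ by an insert in the kinase domain. One annotated form has 42 coding bases that the kinase form above lacks, and another has 117, of which the last 42 are those of the first. The insert of 42 bases is shown in capitals between the shared bases.
Ntrk3 kinase form with insert: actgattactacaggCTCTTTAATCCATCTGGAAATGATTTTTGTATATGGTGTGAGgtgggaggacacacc

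Annotated coding lengths range from 1398 to 2463 bases over the 7 coding transcripts of Ntrk2. By contrast, 9 of the 11 coding transcripts of Bdnf share one coding length of 747 bases, and those 11 differ mainly in their first exons. None of these forms can be resolved in the results that follow.

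None of the 6 genes passed the test for a difference between genotypes. The edgeR quasi-likelihood test called 0 of the 6, with adjusted p-values of 0.966 to 0.994, beside 7 of 20733 genes called in all (0.0338%), of which 5 were lower (0.0241%) and 2 higher (0.00965%) in knock-in. None of the 6 had an unadjusted edgeR p under 0.05, which 4.5% of all genes tested had. DESeq2 and limma-voom on the same counts also called 0 of the 6, and in the authors' deposited table all 6 had an adjusted p of 0.9997. For 0 of the 6 genes did the knock-in libraries all lie on one side of the wild-type libraries, where 8.72% of all genes tested showed such a separation. Log2 fold changes below are knock-in minus wild-type, and each 95% interval comes from the same edgeR fit. The mice are separate animals per their labels, but with age and litter unknown the p-values measure only the spread between these 6 libraries.

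**Figure D1:**
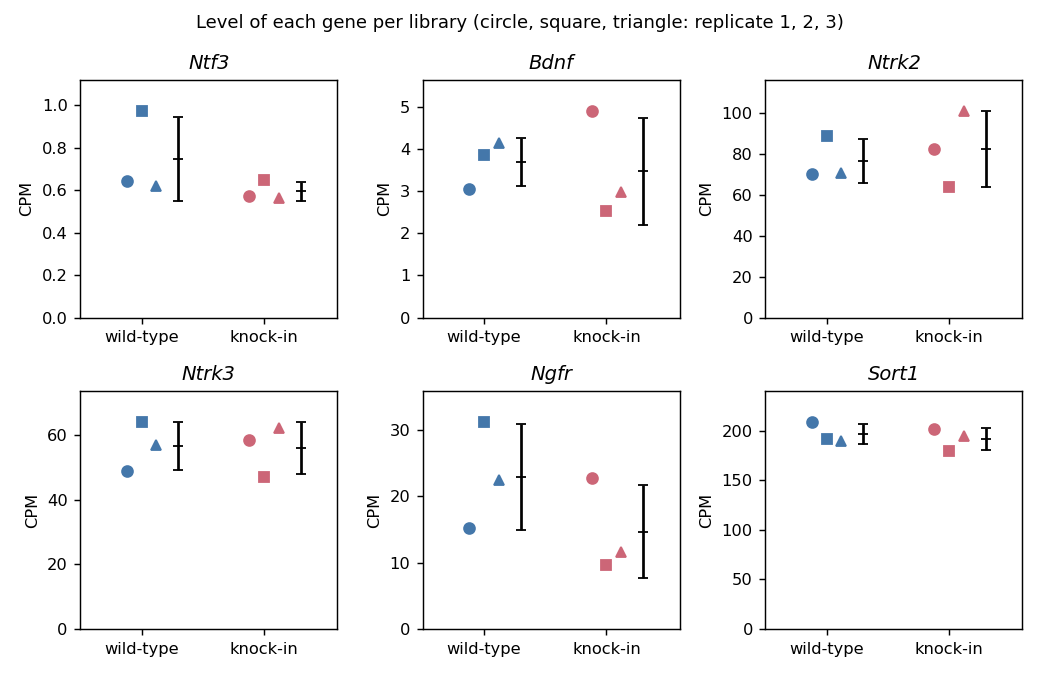
CPM of each of the 6 genes (vertical axes, starting at 0) in the 3 wild-type and 3 knock-in libraries, with one symbol per library and the group mean and SD beside them. The groups overlap in all 6 panels; Ngfr spans 9.68 to 31.2 CPM, while Sort1 stays between 179 and 209 CPM.

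Ntf3 (ENSMUSG00000049107), the ligand of TrkC, lies at chr6:126101412-126166910 on the reverse strand of GRCm38. It was the least abundant gene of the group, with only 16, 29 and 26 counts in the wild-type libraries and 19, 19 and 13 in the knock-in libraries. These were 0.642, 0.975 and 0.62 CPM in wild-type and 0.573, 0.648 and 0.563 CPM in knock-in. Wild-type replicate 2 stood above the other 5 libraries, which all lay close together. Counting error alone was wide, since the 13 counts of knock-in replicate 3 have an exact 95% Poisson interval of 6.92 to 22.2 counts. Means of 0.746 ± 0.199 and 0.594 ± 0.0463 CPM (SD, n = 3 each) corresponded to a log2 fold change of -0.32 (SE 0.29; edgeR adjusted p = 0.971). The 95% interval of -0.97 to 0.34 ran from 1.96-fold lower to 1.27-fold higher. Dropping wild-type replicate 2 left a log2 fold change of -0.08, and dropping knock-in replicate 3 left -0.29.

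Bdnf (ENSMUSG00000048482), the ligand of TrkB, lies at chr2:109674700-109727007 on the forward strand. Its levels were 3.05, 3.87 and 4.15 CPM in wild-type and 4.91, 2.52 and 2.99 CPM in knock-in, from 69 to 174 counts per library. Knock-in replicate 1 was the highest of all 6 libraries and the other 2 knock-in libraries were the lowest, so the spread within knock-in exceeded the difference between the groups. The means were 3.69 ± 0.571 and 3.47 ± 1.27 CPM (SD, n = 3 each), with a log2 fold change of -0.08 (SE 0.26; edgeR adjusted p = 0.988) and a 95% interval of -0.67 to 0.50. Leaving out knock-in replicate 1 gave -0.43 and leaving out knock-in replicate 2 gave 0.10, so single libraries set the direction; without knock-in replicate 3 the value was 0.01. Gm45346, a gene on the other strand, overlaps exons of Bdnf. It had 9 counts in knock-in replicate 3 and 0 in the other 5 libraries. The strand setting of the counting was not given, so reads from the overlap cannot be assigned with certainty.

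Ntrk2 (ENSMUSG00000055254), the TrkB gene, lies at chr13:58806569-59133970 on the forward strand. Its wild-type levels were 70.2, 88.9 and 71.0 CPM, and its knock-in levels 82.7, 63.7 and 101 CPM. The lowest and the highest of the 6 libraries were both knock-in. The means were 76.7 ± 10.6 and 82.6 ± 18.8 CPM (SD, n = 3 each), and the log2 fold change was 0.11 (SE 0.17; edgeR adjusted p = 0.98). The 95% interval of -0.27 to 0.48 leaves room for a level 1.2-fold lower or 1.39-fold higher. The highest library was the one labelled knock-in replicate 3, and without it the log2 fold change was -0.07. The summed levels of 3 marker lists were also highest in that library. The 8 central glia markers, all with counts, summed to 272 to 316 CPM in wild-type and to 248, 341 and 399 CPM in knock-in replicates 1, 2 and 3. The 8 pericyte and smooth muscle markers summed to 523 to 647 CPM in wild-type and 464, 513 and 667 CPM in knock-in. The 8 marrow stroma and adipocyte markers summed to 482 to 687 CPM in wild-type and 615, 539 and 698 CPM in knock-in. The correlations used log2 CPM of Ntrk2 and the mean log2 CPM of the tested markers of each list, not the sums. For marrow stroma and adipocytes these measures differ. Wild-type replicate 1 had the lowest mean log2 CPM of that list, 4.92, but a sum of 687 CPM. Over the 6 libraries Pearson's r of Ntrk2 was 0.65 with the second and with the third of these lists and 0.37 with central glia (exact permutation p = 0.169, 0.158 and 0.472). Spearman's rho was 0.6, 0.43 and 0.2 (exact permutation p = 0.242, 0.419 and 0.714), and without the 2 farthest libraries r was -0.66, -0.4 and 0.05. The part of these cells in the Ntrk2 value was not tested.

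Ntrk3 (ENSMUSG00000059146), the TrkC gene, lies at chr7:78175959-78738012 on the reverse strand. The wild-type libraries held 49.0, 64.1 and 57.0 CPM and the knock-in libraries 58.5, 47.0 and 62.4 CPM. Both groups covered nearly the same range. Their means were 56.7 ± 7.58 and 56.0 ± 8.04 CPM (SD, n = 3 each), with a log2 fold change of -0.02 (SE 0.14; edgeR adjusted p = 0.994) and a 95% interval of -0.33 to 0.29. Changes larger than 1.25-fold down or 1.22-fold up fall outside that interval. Without knock-in replicate 3 the value was -0.11.

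Ngfr (ENSMUSG00000000120), the p75 gene, lies at chr11:95568818-95587735 on the reverse strand and has 1 annotated transcript. It varied most among the 6 genes. Wild-type libraries held 15.2, 31.2 and 22.5 CPM and knock-in libraries 22.7, 9.68 and 11.6 CPM. Knock-in replicates 2 and 3 lay below all wild-type libraries, but knock-in replicate 1 lay above 2 of the 3. The means were 22.9 ± 8.0 and 14.7 ± 7.0 CPM (SD, n = 3 each). The log2 fold change was -0.64 (SE 0.33; edgeR adjusted p = 0.966), and the unadjusted edgeR p was 0.08. The 95% interval of -1.38 to 0.09 covers a level 2.59-fold lower and one 1.07-fold higher. The log2 fold change was -1.11 without knock-in replicate 1 (edgeR adjusted p = 0.321, the lowest of the 12 refits, which ranged up to 1.0), -0.51 when knock-in replicate 3 was left out instead and -0.36 when wild-type replicate 2 was. None of the 6 fits with one library left out called it.

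Sort1 (ENSMUSG00000068747), the sortilin gene, lies at chr3:108284082-108361511 on the forward strand. It was the most abundant and the steadiest, at 209, 192 and 190.0 CPM in wild-type and 202, 179 and 194 CPM in knock-in. The 6 libraries differed by no more than 1.16-fold between the lowest and the highest. The means were 197 ± 10.3 and 192 ± 11.3 CPM (SD, n = 3 each), and the log2 fold change was -0.04 (SE 0.1; edgeR adjusted p = 0.986). With a 95% interval of -0.26 to 0.19, it has the narrowest interval of the group, and a fall beyond 1.2-fold or a rise beyond 1.14-fold lies outside it. Without knock-in replicate 3 the value was -0.05. A gene on the other strand, Gm12523, overlaps its exons and held 2 to 12 counts per library against 4487 to 7961 for Sort1.

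The spread of each gene over all 6 libraries, regardless of genotype, was set beside that of genes at a like level (mean CPM within 2-fold). The SD of log2 CPM was 0.63 for Ngfr, and 99.0% of the 5934 genes at its level had a smaller one; the median of those genes was 0.15. It was 0.25 for Ntrk2, where 89.7% of 4028 genes were steadier, and 0.31 for Bdnf, where 80.9% of 3751 genes were. Ntrk3 had 0.18, with 75.1% of 5068 genes steadier. Sort1 had 0.07, and only 12.8% of the 1428 genes at its level were steadier. Ntf3 had 0.17, and 24.6% of the 4182 genes at its level varied less. The pseudocount of 0.5 narrows the SD at so low a level, so that of Ntf3 cannot be set beside that of Ntrk3. As SD over mean of CPM, Ntf3 varied by 22.9% and Ntrk3 by 12.4% (n = 6). Without knock-in replicate 3 the shares of steadier genes were 99.2% for Ngfr, 83.0% for Ntrk2 and 86.9% for Bdnf. They were 80.6% for Ntrk3, 25.1% for Sort1 and 34.4% for Ntf3. The percentages describe these libraries and are no test.

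Levels of different genes can be compared only per length. Divided by the length of all annotated exons merged, the order from high to low over the 6 libraries was Sort1 (25.7 ± 1.33 CPM per kilobase), Ngfr (5.46 ± 2.35), Ntrk2 (4.13 ± 0.725), Ntrk3 (1.87 ± 0.232), Bdnf (0.576 ± 0.143) and Ntf3 (0.391 ± 0.0894; all SD, n = 6). Ligand RNA was thus the scarcest and sortilin RNA the most abundant on this scale. Sort1 lay above every other gene in all 6 libraries, 4.71-fold above Ngfr on average. Ngfr and Ntrk2 did not separate, with Ngfr higher in 4 of 6 libraries. Ntrk2 exceeded Ntrk3 by 2.21-fold and Ntrk3 exceeded Bdnf by 3.24-fold, each in 6 of 6 libraries with ranges that did not overlap. Bdnf was above Ntf3 within every library, but their ranges overlapped. The order of the means was the same without knock-in replicate 3, at 25.7, 5.87, 3.9, 1.83, 0.595 and 0.404 CPM per kilobase.

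The order of the 3 receptor genes depended on the length used. The merged exons of Ntrk3 add up to 30170 bases and those of Ntrk2 to 19292, whereas the transcripts with the longest coding sequence have 2774 and 4706 bases. On the lengths of those transcripts, a choice made after seeing the data, Ntrk3 was at 20.3 ± 2.52 and Ntrk2 at 16.9 ± 2.97 CPM per kilobase (SD, n = 6), both above Ngfr at 5.46 ± 2.35 in all 6 libraries. With the longest transcript of each gene, Ntrk2 was at 9.11 ± 1.6, Ngfr at 5.46 ± 2.35 and Ntrk3 at 2.86 ± 0.355. That longest transcript of Ntrk2 (8744 bases) and the one of 4706 bases used above tie at 2463 coding bases. Ties were settled by taking the shorter transcript, for Ntf3 too (1343 over 1399 bases). The position of Sort1 at the top and of Bdnf and then Ntf3 at the bottom was the same with all 3 lengths. Which transcripts the reads came from was not measured, so neither Trk gene can be placed above the other.

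**Figure D2:**
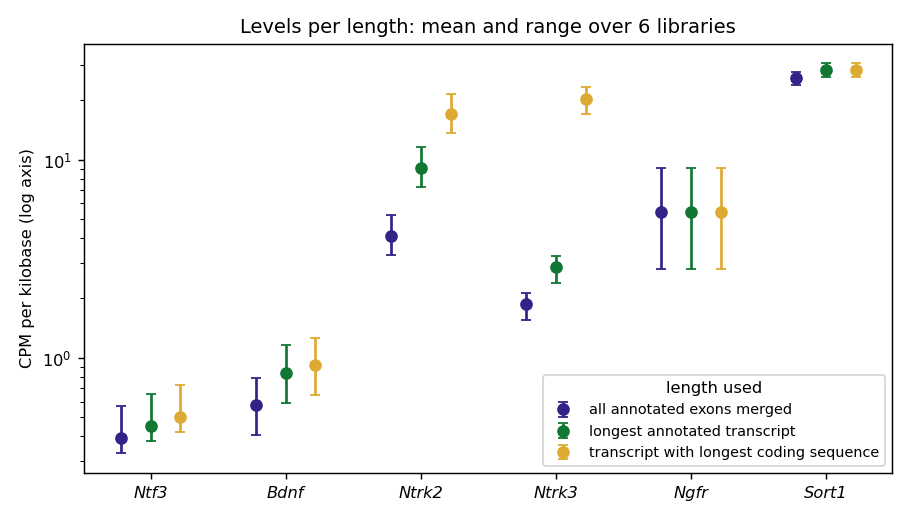
CPM per kilobase (vertical log axis) of the 6 genes under 3 definitions of gene length, as the mean over 6 libraries with bars from the lowest to the highest library. Ntrk3 moves from 1.87 to 20.3 with the length chosen, while Ntf3, Bdnf and Sort1 keep their places at the bottom and the top.

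Ratios within a library do not depend on library scaling, and their difference between the groups does not depend on gene length. For each of 6 pairs the log2 ratio of counts per kilobase was compared between groups with an exact two-sided permutation test, which with 3 against 3 libraries cannot give a p under 0.1. The ligands against each other, Ntf3 over Bdnf, gave -0.39, -0.13 and -0.88 in wild-type and -1.24, -0.1 and -0.55 in knock-in (difference -0.16). The receptors against each other, Ntrk3 over Ntrk2, gave -1.16, -1.12 and -0.96 in wild-type and -1.14, -1.09 and -1.34 in knock-in, a difference of -0.11. This was the tightest of the 6 ratios, with an SD of 0.12 over the 6 libraries, against 0.25 and 0.18 for Ntrk2 and Ntrk3 alone.

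Each ligand against its own receptor varied more, with an SD over the 6 libraries of 0.30 for Ntf3 over Ntrk3 and 0.38 for Bdnf over Ntrk2. These SDs include the counting error of the scarce ligands, which was not separated. Ntf3 had 13 to 29 counts per library and Bdnf 69 to 174. Ntf3 over Ntrk3 averaged -2.13 in wild-type and -2.41 in knock-in, and Bdnf over Ntrk2 averaged -2.75 and -2.97. The widest difference was that of Ngfr over Ntrk2, which was 0.28, 0.97 and 0.83 in wild-type and 0.62, -0.23 and -0.64 in knock-in (difference -0.77, exact permutation p = 0.2). Sort1 over Ngfr differed by 0.65 (exact permutation p = 0.2). Without knock-in replicate 3 the differences were -0.50 for Ngfr over Ntrk2, 0.52 for Sort1 over Ngfr, -0.16 for Ntf3 over Ntrk3, 0.015 for Bdnf over Ntrk2, -0.21 for Ntf3 over Bdnf and -0.034 for Ntrk3 over Ntrk2. Leaving out wild-type replicate 2 instead gave 0.38 for Sort1 over Ngfr and -0.16 for Ntf3 over Ntrk3, so single libraries set much of each value. The groups overlapped in all 6 ratios, and the exact permutation p-values of 0.2 to 0.7 became 0.6 to 0.7 after Benjamini-Hochberg adjustment over the 6.

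Ntf5, the gene of neurotrophin-4, showed no called difference either, at 0.564 ± 0.159 CPM in wild-type and 0.58 ± 0.133 CPM in knock-in (SD, n = 3 per group). Per kilobase of merged exons it was the scarcest of the ligand genes given here (0.216 ± 0.0496 CPM per kilobase; SD, n = 6), below Bdnf (0.576 ± 0.143) and Ntf3 (0.391 ± 0.0894).

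In the sortilin family, Sorl1, the gene of a sorting receptor related to sortilin, was the only one as abundant as Sort1 per kilobase of merged exons, at 34.5 ± 3.48 against 25.7 ± 1.33 CPM per kilobase (SD, n = 6). Sorcs2 was at 2.9 ± 0.346, Sorcs3 at 2.36 ± 0.233 and Sorcs1 at 0.94 ± 0.223 CPM per kilobase. Log2 fold changes of these 4 lay between -0.08 and 0.13, none called by edgeR.

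**Figure D3:**
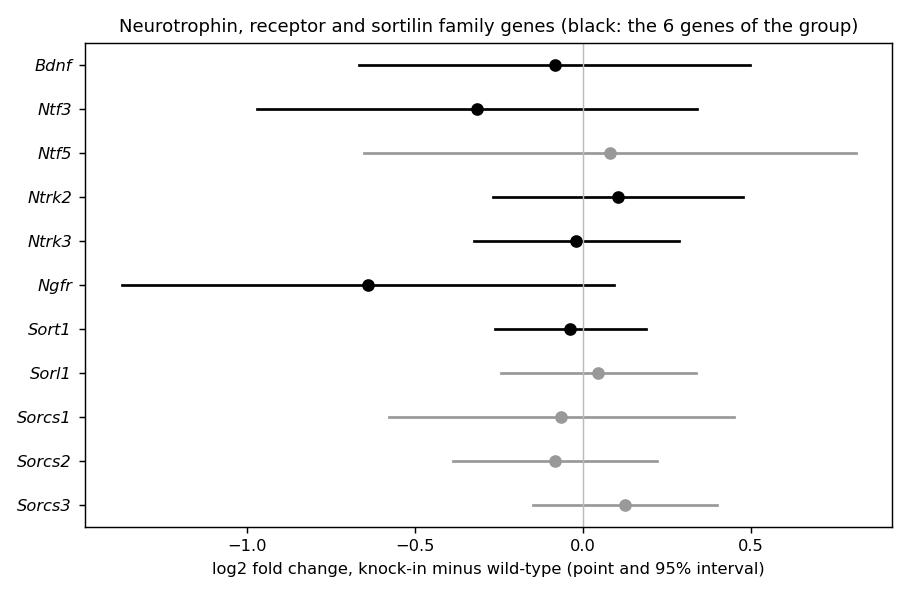
Log2 fold change, knock-in minus wild-type, with 95% intervals from the edgeR fit (horizontal axis) for neurotrophin, receptor and sortilin family genes; the 6 genes of the group are black and 5 relatives are grey. Every interval drawn includes 0, from the narrow one of Sort1 (-0.26 to 0.19) to the wide one of Ngfr (-1.38 to 0.09).

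The wider pathway was read from 7 lists of 91 genes, of which 89 were tested. Of these 0 were called higher and 0 lower by edgeR. An unadjusted edgeR p under 0.05 was found for 10 (11.2%, beside 4.5% of all genes tested). Most of the 10 came from 1 list, with 7 among the 12 activity and Trk response genes described below. Another 2 were Trk adaptors or kinases and 1 was a p75 partner. The median log2 fold change of the 89 was -0.07 beside 0.0 for all genes tested. Without knock-in replicate 3, 0 were called and 7 of 89 had such a p (7.87%, beside 3.88% of all genes tested in that fit), with a median of -0.06. Of the 9 tested genes that cleave the precursors or regulate that cleavage, none had an unadjusted p under 0.05; Furin, the main precursor convertase, had a log2 fold change of 0.06 and Plat, the tissue plasminogen activator gene, 0.17. Their median was 0.04, and -0.09 without knock-in replicate 3. Of 17 partners of p75, 13 had negative values around a median of -0.07, and Bex3, a p75-binding protein gene, was the one with the smallest p, at a log2 fold change of -0.31 (SE 0.11; edgeR adjusted p = 0.966). Of 38 Trk adaptors and kinases, 29 had negative values with a median of -0.06. Mapk3, which encodes the kinase ERK1, had -0.29, and Sh2b2, a Trk adaptor gene, had 0.31. Without knock-in replicate 3, 23 of the 38 Trk adaptors and kinases were negative and 15 positive, with a median of -0.04. Of the 17 partners of p75, 15 were negative in that fit, with a median of -0.07.

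The 12 genes that neuronal activity or Trk signalling can induce had a median log2 fold change of -0.41, with 10 negative and 7 at an unadjusted edgeR p under 0.05, which 4.5% of all genes tested had. Without knock-in replicate 3 the median was -0.5 and 6 of the 12 had such a p. Spry4, an inhibitor of receptor kinase signalling, was at 10.8 ± 0.652 against 7.86 ± 0.847 CPM, and Egr2, a zinc finger factor that also drives myelin genes, at 9.31 ± 2.75 against 5.38 ± 1.13 CPM (SD, n = 3 per group), both at an edgeR adjusted p of 0.966. Wild-type replicate 1 set much of the summed level of this list, 420 CPM against 164 and 186 CPM in the other wild-type libraries and 136 to 157 CPM in knock-in. The median and counts of the list are not given without that library, so how far they rest on it is not shown. Bdnf, itself a gene induced by activity, was in that library at 3.05 CPM, the lowest of the wild-type libraries.

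Neurons and Schwann cells are the best known carriers of these receptors. The 16 spiral ganglion neuron markers, all with counts, summed to 704, 1025 and 995 CPM in wild-type and to 829, 571 and 803 CPM in knock-in; edgeR called 0 of them in either direction, 14 had negative log2 fold changes, and their median was -0.29. Among them Nefh, the heavy neurofilament gene, and Tubb3, a neuronal tubulin gene, each had -0.42. Of the 14 Schwann and satellite cell markers, 0 were called, 11 were negative and the median was -0.17, with Prx, the periaxin gene, at -0.54. Their sums were 1438 to 1835 CPM in wild-type and 1377 to 1729 CPM in knock-in. The medians without knock-in replicate 3 were -0.29 for the neuron and -0.26 for the Schwann and satellite list, with 0 called in either.

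Of 12 supporting cell markers 9 had positive log2 fold changes with a median of 0.17, none called by edgeR, and Otoa, which encodes a protein that anchors gels to the epithelium, had 0.25. Of 8 pericyte and smooth muscle markers 4 were negative and 4 positive, with a median of -0.04 and 0 called, and Myh11, the smooth muscle myosin gene, had -0.54. The 7 tested central glia markers had a median of 0.21, with 0 called. Slc1a3, at a log2 fold change of 0.27, is in both the central glia and the supporting cell list. At 120 to 169 CPM per library, it held a large part of the central glia sums of 248 to 399 CPM.

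The list of marrow stroma and adipocyte markers was split. The 4 adipocyte genes Cidec and Plin1, which encode lipid droplet proteins, Adipoq, the adiponectin gene, and Pparg, a regulator of fat cell formation, had log2 fold changes of 2.08, 1.61, 1.23 and 0.74, all at an unadjusted edgeR p under 0.05 and an adjusted p of 0.966. Cidec was at 7.31, 14.5 and 14.0 CPM in wild-type and 35.9, 19.9 and 97.3 CPM in knock-in, with every knock-in library above every wild-type library. The stroma genes Cxcl12, Lepr, Ebf3 and Kitl had -0.42, -0.09, -0.004 and 0.0067. Plin1, Adipoq and the stroma genes were named after their values were seen.

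Of 8 pigment cell markers all were negative and 4 were called lower by edgeR, Dct, a melanin synthesis enzyme gene, among them at -2.25. The fit without knock-in replicate 3 called 2 of the 8. In that fit the median was 0.13 for supporting cells, -0.28 for pericytes and smooth muscle, -0.14 for central glia and 0.28 for marrow stroma and adipocytes, so that of central glia changed sign.

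Ngfr followed the neuron markers over the 6 libraries. It was highest in wild-type replicate 2, where their sum was highest, and lowest in knock-in replicate 2, where their sum was lowest. Pearson's r between log2 CPM of Ngfr and the mean log2 CPM of the 16 markers was 0.95 (exact permutation p = 0.0139) and Spearman's rho was 0.89 (exact permutation p = 0.0333). Without the 2 libraries farthest from the median of the markers r was 0.86, and within the 3 wild-type and the 3 knock-in libraries it was 0.93 and 0.96. Values over 3 libraries say little by themselves. With the Schwann and satellite cell markers, those of Ngfr were 1.0 after rounding and -0.03. The relation with the neuron markers was 1 of 48 computed between the 6 genes and 8 marker lists. None of the 48 passed after Benjamini-Hochberg adjustment (adjusted exact permutation p of 0.467 for r and 0.533 for rho). Ngfr also followed 6 skeletal muscle markers (r = 0.89, exact permutation p = 0.0194, adjusted p = 0.467; rho = 0.89, exact permutation p = 0.0333, adjusted p = 0.533; r = 0.77 without the 2 farthest libraries). The muscle sums were 3185 to 4921 CPM in wild-type and 2378 to 3980 CPM in knock-in. All 6 muscle markers were lower in knock-in (median log2 fold change -0.27), and edgeR called 0 of them. Without knock-in replicate 3 all 6 were still lower (median -0.19), with 0 called. Over all 6 libraries Ngfr had r = 0.67 with the Schwann and satellite cell markers (exact permutation p = 0.149), and 0.37 without the 2 farthest libraries. Spearman's rho was 0.6 (exact permutation p = 0.242). The part of any of these cells or tissues in the Ngfr difference was not tested.

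Bdnf had r = 0.85 with the neuron markers (exact permutation p = 0.0528; rho = 0.71, exact permutation p = 0.136; r = 0.84 without the 2 farthest libraries). For Ntrk3 r was 0.75 with the neuron markers (exact permutation p = 0.107; rho = 0.77, exact permutation p = 0.103), and it fell to 0.34 without the 2 farthest libraries, so that relation rested on those libraries. Ntrk3 had r = 0.81 with the Schwann and satellite cell markers (exact permutation p = 0.0514, adjusted p = 0.547; rho = 0.77, exact permutation p = 0.103), and 0.69 without the 2 farthest libraries. Bdnf had r = -0.76 with the central glia markers (exact permutation p = 0.0847; rho = -0.89, exact permutation p = 0.0333, adjusted p = 0.533), and -0.63 without the 2 farthest libraries. Sort1, which varied little between libraries, had r = 0.14 with the neuron markers. With the hair cell markers Sort1 had r = -0.77 (exact permutation p = 0.0569, adjusted p = 0.547), and -0.65 without the 2 farthest libraries. Spearman's rho of that relation was -0.71 (exact permutation p = 0.136). In log2 CPM Ntrk2 and Ntrk3 went together (r = 0.88 over the 6 libraries), as did Bdnf and Ngfr (r = 0.84), while Ntf3 and Bdnf had r = 0.07; these 3 values are given as descriptions. No label gives a batch by which the libraries could be split.

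**Figure D4:**
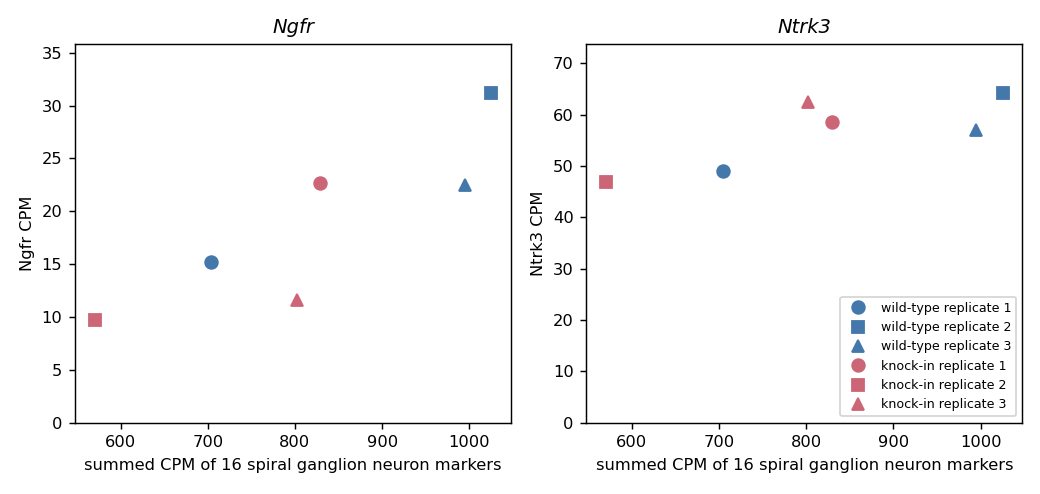
CPM of Ngfr and Ntrk3 (vertical axes) against the summed CPM of 16 spiral ganglion neuron markers (horizontal axes), one symbol per library, wild-type in blue and knock-in in red. Ngfr is lowest in knock-in replicate 2 (9.68 CPM) and highest in wild-type replicate 2 (31.2 CPM), the libraries with the lowest and highest marker sums (571 and 1025 CPM).

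The genes most like each member in log2 CPM over the 6 libraries were picked by Pearson's r among about 12320 named protein-coding genes with a mean of at least 5 CPM. They were Efnb2 and Nrg1 for Ngfr (both r = 1.0 after rounding), Rragb (r = 1.0) and Plekha3 (r = 0.99) for Ntrk3, and Fitm2 and Musk (r = 0.99 each) for Ntrk2. For Bdnf they were Dld (r = 0.99) and 1700021F05Rik (r = 0.98), for Ntf3 Ankfn1 and Peli3 (r = 0.99 each) and for Sort1 Mfsd12 (r = 0.99) and Zfp169 (r = 0.98). With 6 libraries such values are common: 220 genes had r above 0.9 with Ngfr and 39 with Ntf3.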

How the data were processed

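Per the labels, the authors sequenced pairs of 93-base reads and aligned them to GRCm38 with GENCODE release 11 of the mouse. Their aligner was STAR 2.5.2 and their test DESeq2, per the submitters' processing notes. How reads were counted, and with which strand setting, is not stated. The authors deposited raw read counts per gene, which are used here. From the authors' deposited DESeq2 table (mean signal, log2 fold changes, test score, p-values) only adjusted p-values are quoted. Regularized log values were left aside.

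Symbols, lengths and coordinates came from GENCODE release 21 of the mouse, also GRCm38, by identifier (48349 of 48709 matched). Another 24 rows (spike-ins, transgenes; 0.00151% to 0.0045% of counts) stayed out of totals and tests. edgeR 4.0.16 (R 4.3.3) used filterByExpr, TMM, group as the only term and the two-sided quasi-likelihood F test, with Benjamini-Hochberg adjustment over 20733 genes and a threshold of 0.05. The SE was the absolute log2 fold change over the square root of F. CPM used TMM-scaled totals; log2 CPM used a pseudocount of 0.5. Permutation tests enumerated all arrangements; intervals of counts are exact Poisson and cover counting error only. On simulated counts at these depths (20733 genes), edgeR recovered 49 of 50 genes raised 2-fold and 36 of 50 lowered to 0.5. The changed genes were drawn only from those with a mean of at least 50 counts per library, a level that Ntf3 did not reach. The pooled rates were not split further by count level or by spread. They therefore give no detection rate for a gene as scarce as Ntf3 or as variable as Ngfr.

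Replicate numbers follow accession order and pair nothing. Members and lists were chosen with earlier results of these data known. Beside the 6 members, named genes are up to 4 per pathway list and up to 2 per marker list with the smallest p, and the 2 most correlated genes per member; Hgf, Dct, the antisense genes and further values given side by side were added to describe libraries or overlaps. DESeq2 1.42.0, limma-voom (limma 3.58.1), RLE and upper-quartile scaling, other filters, other lengths and leaving out each library were the alternatives. Some genes of the lists are not reported here by name.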

Additional observations from a re-analysis of the deposited data

Results flagged for a closer look

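Reads of the Neo cassette lie outside the gene comparisons. In knock-in replicate 1 they came to 2.06 CPM of unscaled totals, and in knock-in replicate 2 to 6.99 CPM, and each 95% counting interval lay above those of the wild-type libraries, which held 0.207 to 0.275 CPM. Knock-in replicate 3, at 0.208 CPM, lay within the wild-type range.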

How the results depend on the processing

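No paired analysis was possible because the labels give the groups no shared replicate numbers. None of 12 alternative settings called any of the 6 genes. Of 71 refitted log2 fold changes of the 6 genes 63 kept their direction; the filter of at least 1 CPM in 3 libraries removed Ntf3. The 8 that turned, each with 1 library left out, were Bdnf (0.0078 without wild-type replicate 3, 0.0062 without knock-in replicate 3 and 0.10 without knock-in replicate 2), Ntrk2 (-0.069 without knock-in replicate 3), Ntrk3 (0.08 without wild-type replicate 2, 0.092 without knock-in replicate 2) and Sort1 (0.0075 without knock-in replicate 2, 0.0053 without wild-type replicate 1). With 1 library left out, values ran from -0.45 to -0.08 for Ntf3, -0.43 to 0.10 for Bdnf, -0.069 to 0.26 for Ntrk2, -0.12 to 0.092 for Ntrk3, -1.11 to -0.36 for Ngfr and -0.072 to 0.0075 for Sort1. Differences of log2 ratios turned for Ntf3 over Bdnf (-0.43 to 0.14; 0.0051 without wild-type replicate 2, 0.14 without knock-in replicate 1) and Bdnf over Ntrk2 (-0.49 to 0.015; 0.015 without knock-in replicate 3), and 4 ratios kept their direction, with Ngfr over Ntrk2 at -1.13 to -0.50, Sort1 over Ngfr at 0.38 to 0.97, Ntf3 over Ntrk3 at -0.46 to -0.16 and Ntrk3 over Ntrk2 at -0.16 to -0.034. Levels, spreads and lists without knock-in replicate 3 were added after seeing the data. The count of all genes called was 7, and 76 without a filter, 29 in DESeq2 and 3 to 21 with 1 library left out (4 and 3 without wild-type replicates 1 and 2, 21 and 3 without knock-in replicates 1 and 3). The cause was not tested.

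Levels per kilobase moved with the length used, by construction. With the longest transcript, wild-type and knock-in levels were 0.865 and 0.815 for Bdnf, 8.77 and 9.44 for Ntrk2, 2.88 and 2.84 for Ntrk3 and 28.8 and 28.1 for Sort1, and 0.401 for Ntf3 in knock-in. With the transcript of the longest coding sequence, chosen after seeing the data, they were 0.555 and 0.443 for Ntf3, 0.945 and 0.89 for Bdnf, 16.3 and 17.5 for Ntrk2, 20.4 and 20.2 for Ntrk3 and again 28.8 and 28.1 for Sort1. Ngfr, with 1 transcript, did not move. Depth limits Ntf3 most, at 13 to 29 counts per library.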
